A study of Danio rerio with 12 samples.

Results

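The comparison described here is TALE KD against control embryos at 12hpf. It covers every gene with a mean of at least 10 estimated counts over the 6 libraries of that stage, which holds for 11640 of the 14850 genes listed. The series has 12 RNA-seq libraries of polyA RNA from whole zebrafish embryos of the Ekwill strain, with 3 control and 3 TALE KD libraries at 6hpf (gastrulation) and as many at 12hpf (segmentation). TALE KD embryos had received morpholinos, antisense oligos that block a transcript's translation or splicing, together with phenol red dye at the 1 to 2 cell stage. The targets were pbx2, pbx4 and prep1.1, the last listed as pknox1.1. Control embryos were kept as pools apart from the injected ones, and no mock injection of them is named in the sources used here. Each library came from a pool of whole embryos, so fewer cells of a type and less RNA per cell cannot be told apart in any of the levels given here.

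TALE factors are homeodomain proteins with an extended loop in the homeodomain, and the Pbx, Prep and Meis families bind DNA with each other and with Hox proteins. Hox proteins pattern the head-to-tail axis and are known for the segments of the hindbrain, the rhombomeres, whose domains are set by retinoic acid and FGF signals. Early in segmentation the zebrafish embryo forms its first somites, the neural plate is divided into regions, and the first precursors of muscle, blood, heart and kidney are present.

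Totals at 12hpf lay between 19783326 and 40924982 counts. Levels are given as TMM-normalized CPM, that is, counts scaled to a common library size. Genes of the stage were present in every library, among them the muscle determination gene myod1 (15.3 to 19.0 CPM), the somite clock gene her1 (43.9 to 62.3 CPM) and the notochord and floor plate signal shha (36.8 to 43.1 CPM). The libraries numbered 3 stood apart in both groups. On the second principal component they lay at -17.3 (control) and -25.6 (TALE KD), against 1.6 to 20.3 for the other 4 libraries. Results are therefore given over all 6 libraries and, where it matters, also without the libraries numbered 3 or with a block for the replicate number. Replicates 1 and 2 lay close together, with a Spearman correlation of 0.9982 in controls and 0.9976 after TALE KD. Replicate 3 correlated with them at 0.9934 in controls and at 0.9924 and 0.9931 after TALE KD. Calls made without the libraries numbered 3 thus rest on a small spread within each group. The transcripts that the morpholinos target were not lower in TALE KD embryos, and these levels do not measure the proteins. Of them, pbx2 was at 90.8, 98.5 and 95.8 CPM in controls 1, 2 and 3 and at 279, 275 and 254 CPM after TALE KD.

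Genes were called where the adjusted p was 0.01 or less and the fold-change 1.5 or more. In TALE KD embryos 147 genes (1.26%) fell and 34 (0.292%) rose. Of those that fell 73 changed by at least 2-fold and 22 by at least 4-fold, and of those that rose 18 and 9 did. The groups did not overlap in any of the 181 genes, while over all genes tested this held for 2009 in the lower direction (17.3%) and for 1772 in the higher (15.22%). An unadjusted p under 0.05 was found for 3158 genes (27.1%). DESeq2 called 263 lower (2.26%) and 63 higher (0.541%). A block for the replicate number gave 385 lower (3.31%) and 91 higher (0.782%), and without the libraries numbered 3 edgeR called 580 (4.98%) and 151 (1.30%). Both of these sets held all 181 genes. The number called moved far more with single libraries. The lower genes numbered 16, 15 and 114 without control replicate 1, 2 or 3, and 38, 15 and 382 without TALE KD replicate 1, 2 or 3. The higher genes numbered 6, 5 and 34 without control replicate 1, 2 or 3, and 9, 5 and 88 without TALE KD replicate 1, 2 or 3. Called whichever library was left out were 14 lower genes, namely egr2b, atoh1b, myog, hoxa9a, shisa3, cyp26b1, snrnp27, alad, sp8a, sox9a, hnrnpa1a, sept2, actl6a and zgc:112980, and 4 higher genes, pbx2, riok3, aldh1a2 and upf3b. In what follows the genes are grouped by tissue, pathway and class. Several members of the hindbrain, Hox, muscle, blood and eye lists are genes that the study picked from these samples, so the direction of those lists is not independent evidence.

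**Figure D1:**
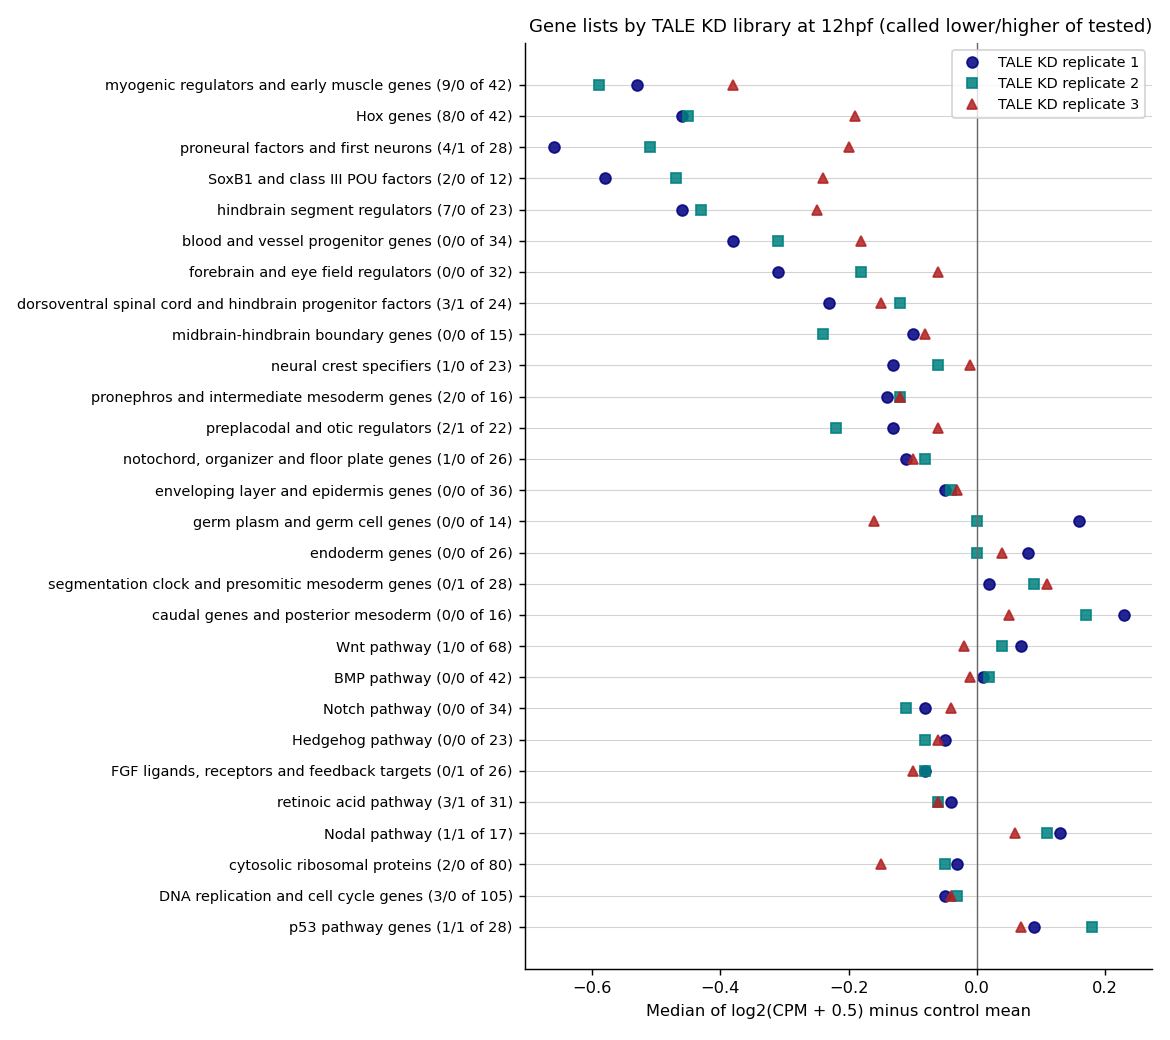
Median over the members of each of 28 gene lists (rows) of log2(CPM + 0.5) in a TALE KD library minus the mean of the 3 controls, with 1 marker per TALE KD library and the genes called lower and higher of those tested in parentheses. The muscle, Hox, proneural and hindbrain lists lie to the left of 0 in all 3 libraries and nearest to 0 in TALE KD replicate 3, and most signalling lists lie near 0.

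Posterior as well as hindbrain members of the Hox family were among the genes that fell. Of 42 Hox genes tested 8 fell and 0 rose (13 lower and 0 higher with the block), 34 lay below 0, and the median log2 fold-change was -0.40 against -0.003 over all genes. The trunk gene hoxa9a was at 66.8, 73.8 and 61.8 CPM in controls 1, 2 and 3 and at 13.5, 13.2 and 15.9 CPM after TALE KD. Its groups lay far apart, with TALE KD replicate 3 close to the other 2 (log2 fold-change -2.24, SE 0.10, edgeR adjusted p = 4.08e-05). The neighbouring genes hoxd11a and hoxd12a, which pattern the posterior end of the axis and the fins, fell as well and were listed at 0 in the 6hpf controls. The level of hoxd11a went from 5.43, 6.17 and 4.26 CPM to 1.84, 1.64 and 2.47 CPM (log2 fold-change -1.40, edgeR adjusted p = 0.00792). That of hoxd12a went from 3.28, 3.63 and 2.72 CPM to 0.871, 1.16 and 0.997 CPM (log2 fold-change -1.64, edgeR adjusted p = 0.00378). Of 23 hindbrain segment regulators 7 fell and 0 rose (10 and 0 with the block), 4 of them Hox genes. Outside the Hox family one was hnf1bb, which marks the caudal hindbrain and the kidney, at 28.4, 26.9 and 22.3 CPM in controls and 11.7, 10.7 and 14.5 CPM after TALE KD (log2 fold-change -1.07, edgeR adjusted p = 0.00376). The anterior hindbrain regulator gbx2 was called with the block and by DESeq2, but not by edgeR over all 6 libraries without the block, at 36.6, 35.4 and 37.7 CPM against 15.6, 16.7 and 27.8 CPM (log2 fold-change -0.85, edgeR adjusted p = 0.0319, blocked 0.000353). In gbx2 TALE KD replicate 3 lay between the controls and the other 2. Without control replicate 1 or 2 or TALE KD replicate 1 or 2 only hoxa9a of the Hox list and egr2b of the hindbrain list were called, while leaving out TALE KD replicate 3 gave 13 and 9 members.

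A minority of the genes of the first neurons passed the test, mostly in the lower direction. Of 28 proneural and early neuronal genes 4 fell and 1 rose (8 and 1 with the block), 22 lay below 0, and the median log2 fold-change was -0.42. The proneural bHLH gene ascl1b was at 6.48, 6.80 and 8.16 CPM in controls and 1.54, 1.88 and 3.32 CPM after TALE KD (log2 fold-change -1.63, edgeR adjusted p = 0.00951). The zinc-finger gene insm1b, which acts in neuronal differentiation, went from 16.0, 17.8 and 14.2 CPM to 8.40, 7.44 and 10.2 CPM (log2 fold-change -0.88, edgeR adjusted p = 0.00870). In both genes every TALE KD library lay below all controls and replicate 3 was the highest of the 3. The Phox2 genes, homeodomain factors of hindbrain motor and noradrenergic neurons, moved in opposite directions. For phox2bb the controls were at 0.729, 1.25 and 1.36 CPM and the TALE KD libraries at 0.0512, 0.0744 and 0.166 CPM, which is at most 7 counts (log2 fold-change -3.33, edgeR adjusted p = 0.00529). The level of phox2a rose from 7.94, 9.09 and 7.30 CPM to 20.6, 18.6 and 13.7 CPM (log2 fold-change 1.11, edgeR adjusted p = 0.00616). Neither Phox2 gene was called without any one of control replicates 1, 2 and 3 and TALE KD replicates 1 and 2. With those left out in turn 1 gene of the list stayed called lower, atoh1b, while leaving out TALE KD replicate 3 gave 10.

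Progenitor factors of the hindbrain and spinal cord showed the same mix. Of 24 factors of dorsoventral domains 3 fell and 1 rose (4 and 1 with the block), with a median log2 fold-change of -0.17. The dorsal interneuron progenitor gene gsx1 was at 1.05, 1.33 and 0.952 CPM in controls and at 0.256, 0.124 and 0.190 CPM after TALE KD, at most 8 counts (log2 fold-change -2.61, edgeR adjusted p = 0.00467). The gene prdm12b, a regulator of V1 interneurons in zebrafish, went from 31.8, 33.1 and 33.7 CPM to 15.7, 14.9 and 20.6 CPM (log2 fold-change -0.94, edgeR adjusted p = 0.00384). The Iroquois gene irx3a had a smaller change, from 70.2, 67.1 and 72.9 CPM to 39.9, 45.2 and 51.0 CPM (log2 fold-change -0.62, edgeR adjusted p = 0.00549). In all 3 the groups were apart. The dorsal progenitor gene olig3 rose, from 15.0, 13.4 and 15.4 CPM to 25.7, 27.2 and 23.3 CPM (log2 fold-change 0.80, edgeR adjusted p = 0.00250). Of 12 SoxB1 and class III POU factors, which keep or direct neural progenitors, 2 fell and 0 rose (4 and 0 with the block), and the median log2 fold-change was -0.36. They were pou3f3b and sox1a, the latter at 12.6, 12.9 and 12.4 CPM against 8.25, 8.01 and 8.60 CPM (log2 fold-change -0.61, edgeR adjusted p = 0.00565). The related SoxB2 gene sox21a fell from 20.9, 19.8 and 21.1 CPM to 10.8, 10.2 and 12.1 CPM (log2 fold-change -0.90, edgeR adjusted p = 0.00167). Replicates of a group varied little in sox1a and sox21a, and TALE KD replicate 3 was close to the other 2. Without control replicate 1 or 2 or TALE KD replicate 1 or 2, 0 of the dorsoventral, SoxB1 and POU factors were called by edgeR.

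In more anterior parts of the neural plate calls depended on the fit. Of 32 forebrain and eye field regulators edgeR called 0 over all 6 libraries, while 14 had an unadjusted p under 0.05, DESeq2 called 5 lower and edgeR with the block called 7 lower. Without TALE KD replicate 3 edgeR called 8 lower and 1 higher, and with any other library left out it called 0. Of these 32 genes 23 lay below 0, and the median log2 fold-change was -0.22. The telencephalon gene emx2 was at 15.0, 17.8 and 13.6 CPM in controls and 9.68, 8.60 and 10.2 CPM after TALE KD (log2 fold-change -0.70, edgeR adjusted p = 0.0119, blocked 0.00124). For foxg1a, another telencephalon gene, the levels were 17.0, 18.9 and 14.1 CPM against 8.04, 8.75 and 12.0 CPM (log2 fold-change -0.78, edgeR adjusted p = 0.0255, blocked 0.00288). In both genes the groups were apart. The eye field regulator six3b lay at 146 to 159 CPM in controls and 145 to 153 CPM after TALE KD, and these ranges overlapped. Of 15 midbrain-hindbrain boundary genes edgeR called 0, with 7 at an unadjusted p under 0.05, 0 by DESeq2 and 3 lower with the block. Among them was the Wnt ligand wnt10b, at 6.92, 7.55 and 8.34 CPM against 5.38, 4.51 and 5.15 CPM (log2 fold-change -0.61, edgeR adjusted p = 0.0254, blocked 0.00394). Of 7 Zic factors, which act in the neural plate and crest, edgeR called 0, with 1 lower and 3 higher at an unadjusted p under 0.05. The gene zic5 was lower with the block and by DESeq2. Of the 7 genes 2 lay below 0, and the median log2 fold-change was 0.10.

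At the border of the neural plate few genes were called. Of 23 neural crest specifiers 1 fell and 0 rose (4 and 0 with the block), and the median log2 fold-change was -0.16. This was sox9a, which acts in crest, cartilage and ear, at 20.9, 19.1 and 17.5 CPM in controls and 7.28, 7.58 and 6.77 CPM after TALE KD (log2 fold-change -1.41, SE 0.10, edgeR adjusted p = 0.000453). It was called whichever library was left out, and TALE KD replicate 3 was the lowest of the 6. Of 22 preplacodal and otic regulators 2 fell, sox9a and dlx4b, and 1 rose. The homeobox gene dlx4b of the preplacodal region went from 15.4, 16.9 and 13.8 CPM to 9.43, 8.90 and 9.71 CPM (log2 fold-change -0.72, edgeR adjusted p = 0.00531). The gene that rose was foxi1, a competence factor of the otic placode, from 23.1, 22.3 and 22.1 CPM to 41.7, 40.1 and 32.3 CPM (log2 fold-change 0.75, edgeR adjusted p = 0.00431). In foxi1 the groups were apart and TALE KD replicate 3 lay nearest to the controls. Neither dlx4b nor foxi1 was called without control replicate 1 or 2 or TALE KD replicate 1 or 2.

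**Figure D2:**
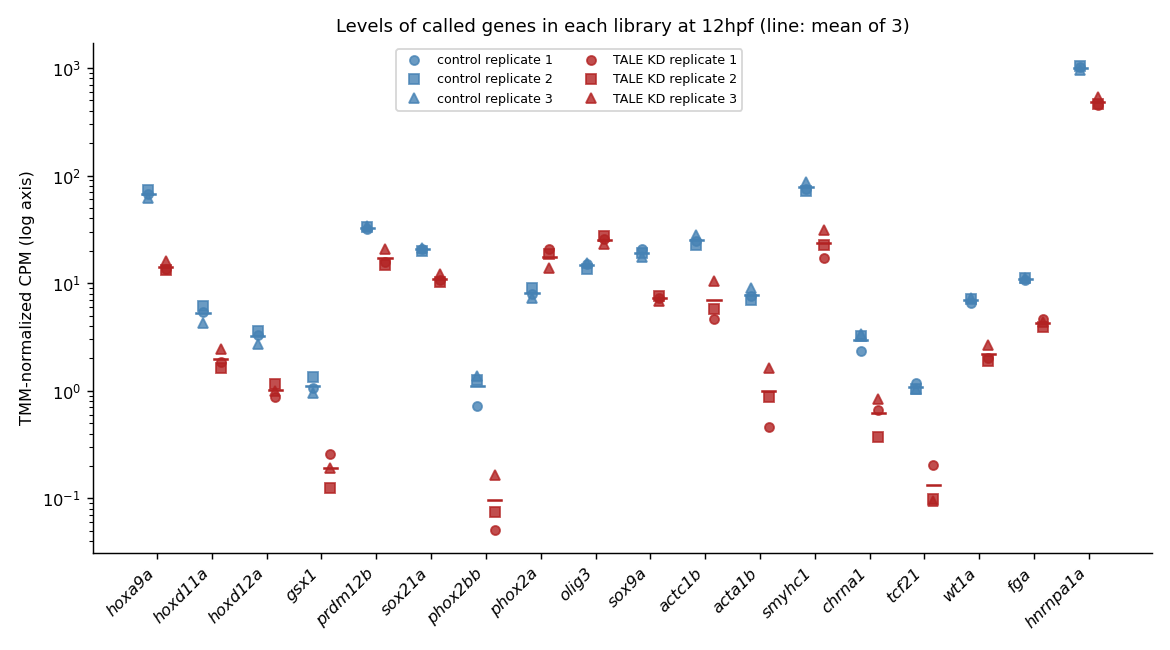
TMM-normalized CPM (log axis) of 18 called genes in each of the 6 libraries at 12hpf, with control in blue, TALE KD in red, a marker shape for each replicate and a line at the mean of 3. The blue and red points do not overlap in any of the 18 genes, TALE KD is higher in phox2a and olig3, and TALE KD replicate 3 is the red point nearest to the controls in genes such as actc1b, acta1b and smyhc1.

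Skeletal muscle genes gave the largest number of calls among the tissue lists, though not the largest share. The share called lower was 21.4% here and 30.4% in the shorter hindbrain segment list (38.1% and 43.5% with the block). Of 42 myogenic regulators and early muscle genes 9 fell and 0 rose (16 and 0 with the block), 36 lay below 0, and the median log2 fold-change of -0.55 was the lowest of the 60 lists. The slow myosin heavy chain gene smyhc1 was at 74.6, 72.4 and 86.9 CPM in controls and 17.1, 22.8 and 31.2 CPM after TALE KD (log2 fold-change -1.70, SE 0.19, edgeR adjusted p = 0.00239). The muscle actin gene actc1b went from 24.7, 22.8 and 28.2 CPM to 4.66, 5.78 and 10.5 CPM (log2 fold-change -1.82, edgeR adjusted p = 0.00565). The skeletal muscle actin gene acta1b went from 7.65, 6.92 and 8.93 CPM to 0.461, 0.868 and 1.64 CPM (log2 fold-change -2.89, edgeR adjusted p = 0.00270). In these 3 genes TALE KD replicate 3 was the highest of the TALE KD libraries and lay below every control. The acetylcholine receptor subunit gene chrna1 fell from 2.35, 3.21 and 3.40 CPM to 0.666, 0.372 and 0.831 CPM (log2 fold-change -2.26, edgeR adjusted p = 0.00560). The myosin light chain gene myl13, on no list, fell from 2.55, 2.54 and 2.99 CPM to 0.512, 0.248 and 0.499 CPM (log2 fold-change -2.71, edgeR adjusted p = 0.00239). In the other direction cacna1sb, a skeletal muscle calcium channel gene not on the muscle list, rose (log2 fold-change 2.71) and is described further below. The muscle cadherin gene cdh15 changed by -1.87 on the log2 scale (edgeR adjusted p = 0.00847) and the Kelch gene klhl31 by -1.95 (edgeR adjusted p = 0.00186). The myosin chaperone gene hsp90aa1.1 went from 265, 276 and 271 CPM to 120, 137 and 160 CPM (log2 fold-change -0.96, edgeR adjusted p = 0.00167), and the methyltransferase gene smyd1b changed by -0.62 on the log2 scale (edgeR adjusted p = 0.00515).

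Among the genes that specify somite muscle, myod1 and myf5 differed by less than 1.5-fold and meox1 was called in some fits only. The determination gene myod1 was at 17.6, 17.4 and 19.0 CPM in controls and 16.4, 15.3 and 15.4 CPM after TALE KD (log2 fold-change -0.20, edgeR adjusted p = 0.145). For myf5, a second determination gene, the levels were 80.4, 82.1 and 78.2 CPM against 63.3, 62.9 and 61.8 CPM, which passed the adjusted p but not the fold (log2 fold-change -0.36, edgeR adjusted p = 0.00399). The somite gene meox1, at 175, 179 and 204 CPM against 92.6, 104 and 145 CPM (log2 fold-change -0.70, edgeR adjusted p = 0.0244, blocked 2.87e-05), was called with the block and by DESeq2. In all 3 the groups were apart. The number of muscle genes called lower was 1 when control replicate 1 or 2 or TALE KD replicate 2 was left out, 4 for TALE KD replicate 1, 5 for control replicate 3 and 15 for TALE KD replicate 3.

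Presomitic and posterior mesoderm genes did not share the direction of the muscle genes. Of 28 segmentation clock and presomitic genes 0 fell and 1 rose by edgeR, with 5 lower and 11 higher at an unadjusted p under 0.05 and 1 lower by DESeq2, and the median log2 fold-change was 0.07. The gene that rose was aldh1a2, described with the retinoic acid pathway. With the block uncx4.1, a gene of the posterior part of each somite, was lower, at 9.68, 10.9 and 13.6 CPM in controls and 3.33, 4.56 and 6.72 CPM after TALE KD (log2 fold-change -1.19, edgeR adjusted p = 0.0201, blocked 3.99e-05). The presomitic T-box gene tbx6l was at 113, 120 and 106 CPM against 141, 148 and 144 CPM, higher in each TALE KD library but under the fold threshold (log2 fold-change 0.35, edgeR adjusted p = 0.00905). Of 16 caudal and posterior mesoderm genes edgeR called 0 with or without the block and DESeq2 0, with 9 at an unadjusted p under 0.05. Of these 16, 4 lay below 0 and 8 had every TALE KD library above the controls, which held for 15.22% of all genes tested. The smallest p among them belonged to the Wnt ligand wnt8a, at 32.8, 32.4 and 27.4 CPM against 47.7, 46.6 and 39.1 CPM (log2 fold-change 0.52, edgeR adjusted p = 0.0164). Its listed values are identical to those of wnt8-2, and both genes are counted in the 16 and in the 8.

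Whether blood and vessel genes were called depended on the fit. Of 34 tested edgeR called 0 over all 6 libraries, with 17 at an unadjusted p under 0.05 and 3 lower by DESeq2, while with the block 10 were lower and 1 higher. Without TALE KD replicate 3 edgeR called 8 lower and 1 higher, and with any other library left out it called 0. Of the 34 genes 25 lay below 0, and the median log2 fold-change was -0.28. The erythroid gene gata1a was at 0.769, 0.918 and 2.27 CPM in controls and at 0, 0.0496 and 0.332 CPM after TALE KD, at most 14 counts in a TALE KD library (log2 fold-change -3.08, edgeR adjusted p = 0.0420, blocked 0.000326). The blood and vessel regulator lmo2 was at 29.6, 34.4 and 39.7 CPM against 4.05, 5.87 and 17.5 CPM (log2 fold-change -1.86, edgeR adjusted p = 0.0347, blocked 0.000117). For gfi1aa, a repressor in red blood cell precursors, the levels were 7.73, 8.22 and 8.25 CPM against 0.154, 0.372 and 2.18 CPM (log2 fold-change -3.00, edgeR adjusted p = 0.0205, blocked 0.000238). In these 3 genes the groups were apart and TALE KD replicate 3 was the highest of the TALE KD libraries. Without TALE KD replicate 3 the log2 fold-change was -5.11 for gata1a, -2.75 for lmo2 and -4.75 for gfi1aa. Without control replicate 3 it was -2.45, -1.75 and -2.98. The arterial Notch ligand dll4 was at 2.15, 2.42 and 1.68 CPM against 0.820, 0.892 and 1.02 CPM (log2 fold-change -1.18, edgeR adjusted p = 0.0182, blocked 0.00457). The apelin receptor gene aplnrb, of mesoderm and vessel precursors, was at 58.3, 57.9 and 60.4 CPM against 87.5, 89.2 and 74.1 CPM, higher in every TALE KD library but under the fold threshold (log2 fold-change 0.50, edgeR adjusted p = 0.00707).

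Of 16 genes of the pronephros, the embryonic kidney, and its mesoderm 2 fell and 0 rose, with a median log2 fold-change of -0.15. They were hnf1bb, given above, and wt1a, a regulator of the glomerulus, which went from 6.56, 7.05 and 7.30 CPM to 2.00, 1.88 and 2.66 CPM (log2 fold-change -1.66, edgeR adjusted p = 0.00188). The bHLH gene tcf21, known for head muscle and the outer layer of the heart, fell from 1.17, 1.04 and 1.04 CPM to 0.205, 0.0991 and 0.0950 CPM, at most 4 counts in a TALE KD library (log2 fold-change -3.13, edgeR adjusted p = 0.00270). In wt1a and tcf21 the groups lay apart, and tcf21 was lowest in TALE KD replicate 3. Of 18 cardiac progenitor factors 1 fell, nkx2.5 (2 lower with the block). Of 26 notochord, organizer and floor plate genes 1 fell (3 lower and 1 higher with the block). It was foxj1b, a regulator of motile cilia, which went from 13.0, 14.4 and 12.3 CPM to 6.87, 5.65 and 6.79 CPM (log2 fold-change -1.04, edgeR adjusted p = 0.00257). Without control replicate 1 or 2 or TALE KD replicate 1 or 2, 0 of the pronephros, cardiac and notochord genes were called by edgeR.

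Endoderm, yolk and surface layers gave few calls by edgeR over all 6 libraries without the block, and for endoderm this depended on the fit. Of 26 endoderm genes edgeR called 0, with 13 at an unadjusted p under 0.05, 3 lower and 3 higher by DESeq2, and 3 lower and 4 higher with the block. Over all genes the lower and higher shares were 2.26% and 0.541% by DESeq2 and 3.31% and 0.782% with the block. The endoderm determinant sox32 was at 2.23, 2.04 and 1.09 CPM in controls and 7.28, 5.70 and 2.47 CPM after TALE KD (log2 fold-change 1.49, edgeR adjusted p = 0.0605, blocked 0.000111). Its groups were apart, and the libraries numbered 3 were the lowest of each group. The related gene sox17 had a log2 fold-change of 1.12 (edgeR adjusted p = 0.0760, blocked 0.000115). In contrast nkx2.3, of the pharyngeal endoderm, was lower with the block, at 2.47, 2.34 and 2.63 CPM against 0.820, 0.967 and 1.31 CPM (log2 fold-change -1.23, edgeR adjusted p = 0.0148, blocked 0.00162). Of 29 genes of the yolk syncytial layer and of secreted liver-type proteins 1 fell, fga, a fibrinogen chain, from 10.8, 11.2 and 11.1 CPM to 4.61, 3.89 and 4.37 CPM (log2 fold-change -1.37, edgeR adjusted p = 0.000919). The complement gene c9, on no list, fell from 4.33, 3.75 and 3.90 CPM to 2.05, 1.54 and 1.83 CPM (log2 fold-change -1.16, edgeR adjusted p = 0.00714). Of 36 enveloping layer and epidermis genes edgeR called 0, with 9 at an unadjusted p under 0.05, 2 lower by DESeq2 and 2 lower with the block. Of 14 germ plasm and germ cell genes edgeR called 0 with or without the block and DESeq2 0, with 2 at an unadjusted p under 0.05.

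In the retinoic acid pathway the synthesis gene aldh1a2 rose and the degradation genes cyp26b1 and cyp26c1 fell. The degradation gene cyp26a1 did not share their direction. The gene aldh1a2, whose enzyme makes retinoic acid from retinal, rose from 49.7, 43.0 and 51.6 CPM to 127, 131 and 113 CPM (log2 fold-change 1.36, SE 0.08, edgeR adjusted p = 0.000280). The gene cyp26b1, whose enzyme degrades retinoic acid, fell from 31.8, 33.0 and 26.9 CPM to 6.66, 7.68 and 9.24 CPM (log2 fold-change -1.94, SE 0.13, edgeR adjusted p = 0.000406). Both were called whichever library was left out, and TALE KD replicate 3 was nearest to the controls in both. The degradation gene cyp26a1 was at 92.0, 99.0 and 84.2 CPM against 137, 129 and 109 CPM, higher in every TALE KD library and under the fold threshold (log2 fold-change 0.45, edgeR adjusted p = 0.0227, blocked 0.000117). Of the binding proteins, the cellular retinol-binding gene rbp5 fell from 16.4, 18.3 and 16.5 CPM to 8.25, 9.91 and 11.3 CPM (log2 fold-change -0.78, edgeR adjusted p = 0.00811). The retinoic acid-binding gene crabp2a was at 155, 168 and 153 CPM against 98.3, 109 and 123 CPM, which passed the adjusted p but not the fold (log2 fold-change -0.52, edgeR adjusted p = 0.00844). The retinal reductase gene dhrs3a was lower with the block, at 13.9, 10.3 and 19.5 CPM against 5.69, 5.25 and 10.5 CPM (edgeR adjusted p = 0.0785, blocked 5.12e-05). Its groups overlapped, while within each replicate number TALE KD was below control. For the receptors raraa and rarab the log2 fold-changes were -0.07 and -0.10 (edgeR adjusted p = 0.433 and 0.334). Of the 31 pathway genes tested 3 fell, with cyp26c1 the third, and 1 rose, and the median log2 fold-change was -0.05. The number that fell was 1 without control replicate 1 or 2 or TALE KD replicate 1 or 2, 2 without control replicate 3 and 7 without TALE KD replicate 3.

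**Figure D3:**
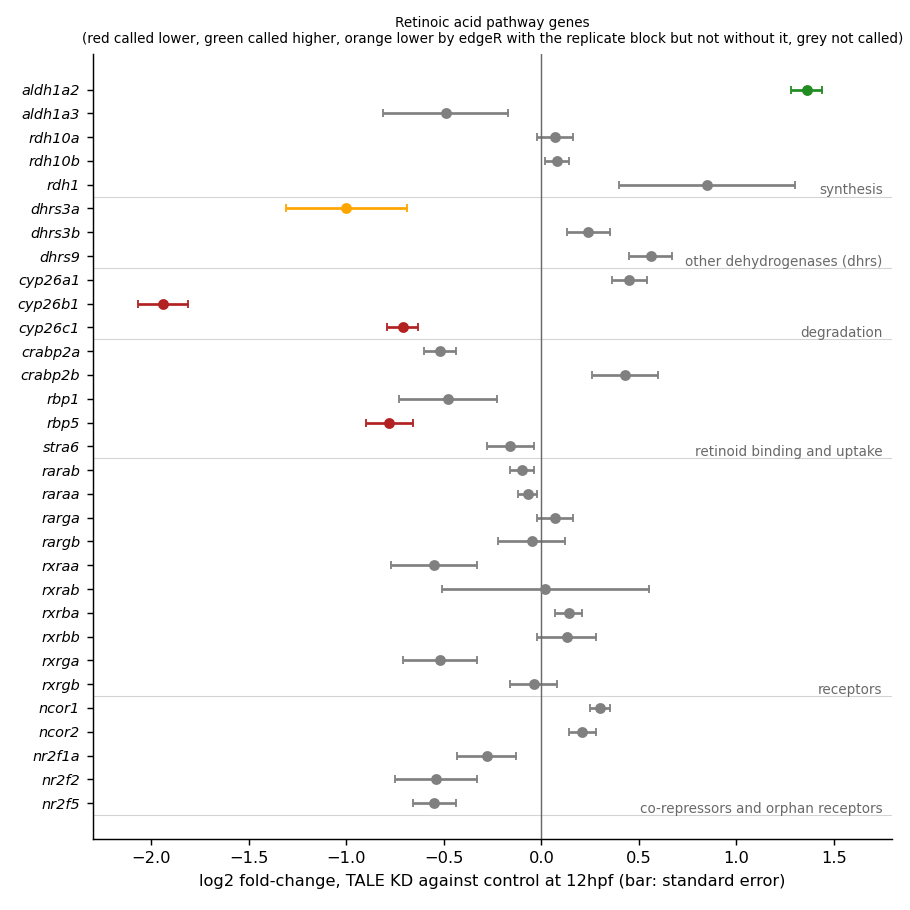
Log2 fold-change at 12hpf with its standard error (bars) for the 31 retinoic acid pathway genes tested, ordered by role, with genes called lower in red, called higher in green, lower by edgeR with the replicate block but not without it in orange and not called in grey. The synthesis gene aldh1a2 (1.36) lies to the right of 0, cyp26b1 (-1.94) and cyp26c1 (-0.71) lie to the left, and raraa and rarab lie near 0. The degradation gene cyp26a1 (0.45), not called, lies to the right.

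The other signalling pathways held few calls, and the median log2 fold-changes of the Nodal, FGF, Wnt, BMP, Hedgehog and Notch lists lay from -0.07 to 0.12. In the Nodal pathway, which induces mesoderm and sets left and right, 1 of 17 genes fell and 1 rose (1 and 3 with the block). The Nodal antagonist lft2 rose from 3.00, 3.17 and 2.68 CPM to 8.92, 8.90 and 5.91 CPM (log2 fold-change 1.41, edgeR adjusted p = 0.00499). The Nodal co-ligand gdf3 fell from 16.0, 17.4 and 19.4 CPM to 11.0, 10.9 and 11.9 CPM (log2 fold-change -0.64, edgeR adjusted p = 0.00714). Each had separate groups, and neither was called without control replicate 1, 2 or 3 or TALE KD replicate 1 or 2. Of 68 Wnt pathway genes 1 fell, the zinc-finger gene sp8a, and 7 were lower with the block. Of 26 genes on the FGF list 1 rose (1 lower and 1 higher with the block). This was ppp1r10, a gene for a regulatory subunit of nuclear protein phosphatase and neither an FGF ligand nor an FGF receptor. Its level rose from 158, 154 and 160 CPM to 283, 285 and 221 CPM (log2 fold-change 0.74, edgeR adjusted p = 0.00376). For the BMP, Hedgehog and Notch pathways edgeR called 0 of 42, 23 and 34 genes. At an unadjusted p under 0.05 there were 18, 16 and 21 of them, of which 11, 9 and 14 were lower and 7, 7 and 7 higher. DESeq2 called 1, 0 and 2 lower, and 2, 0 and 3 were lower with the block. The Notch feedback gene nrarpa was at 321, 322 and 320 CPM in controls and 425, 410 and 400 CPM after TALE KD (log2 fold-change 0.36, edgeR adjusted p = 0.00274). The Hedgehog ligand gene shhb was at 29.0, 26.9 and 25.3 CPM against 38.1, 36.8 and 36.9 CPM (log2 fold-change 0.46, edgeR adjusted p = 0.00617). Both were higher in every TALE KD library and under the fold threshold. Of 41 semaphorin, plexin, slit and netrin genes of axon guidance 1 fell (2 lower with the block), sema3gb, from 8.30, 7.01 and 9.39 CPM to 1.74, 2.16 and 3.18 CPM (log2 fold-change -1.77, edgeR adjusted p = 0.00378).

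In 8 families of transcription factors together 16 of 268 members (5.97%) fell and 1 rose (39 and 4 with the block), beside 1.26% and 0.292% of all genes. Of the 16, 8 were Hox genes, and without that family 8 of 226 members (3.54%) fell. Only hoxa9a, sox9a and sp8a were called lower without control replicate 1 or 2 or TALE KD replicate 1 or 2, while 12 were without control replicate 3 and 41 without TALE KD replicate 3. The difference in share from all genes was not tested. Those that fell were in the Hox, Sox, homeobox, Forkhead, and Klf and Sp families. Of 58 other homeobox factors, such as Iroquois, Lhx, Nkx, Dlx and Pax factors, 3 fell (9 lower with the block) and 42 lay below 0. For 21 T-box and 19 Hairy and Hey factors edgeR called 0, with 10 and 12 at an unadjusted p under 0.05 and 0 and 2 lower both by DESeq2 and with the block. For 72 ZNF-named genes, zinc-finger genes not chosen for a tissue, edgeR called 0 with or without the block and DESeq2 0, with 3 lower and 18 higher at an unadjusted p under 0.05. Of the 13 TALE homeodomain genes 1 fell and pbx2 rose. The gene that fell was meis1a, whose family partners Pbx, from 24.2, 27.5 and 25.5 CPM to 12.6, 15.4 and 17.8 CPM (log2 fold-change -0.74, edgeR adjusted p = 0.00956). The Pbx-interacting protein gene pbxip1b fell from 14.4, 14.3 and 14.6 CPM to 5.64, 7.68 and 8.64 CPM (log2 fold-change -0.96, edgeR adjusted p = 0.00723). In meis1a and pbxip1b the groups were apart with replicate 3 nearest to the controls, and each was called in 1 of the 6 fits that left out a library.

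Broadly expressed genes were also among those that fell, and the classes they belong to had shares of called genes near those of all genes. In 6 lists of ribosomal, ribosome biogenesis, respiratory chain, proteasome, splicing and cell cycle genes together 8 of 435 members (1.84%) fell and 1 rose (9 and 1 with the block). The RNA-binding protein gene hnrnpa1a had the highest level of these, at 1014, 1046 and 966 CPM in controls and 448, 463 and 542 CPM after TALE KD (log2 fold-change -1.06, SE 0.08, edgeR adjusted p = 0.000459). The spliceosome gene snrnp27, on no list, went from 75.0, 78.2 and 76.5 CPM to 22.4, 22.7 and 30.9 CPM (log2 fold-change -1.59, edgeR adjusted p = 0.000535). Both were called whichever library was left out. The related RNA-binding protein gene hnrnph1 rose, from 19.3, 21.7 and 19.9 CPM to 31.8, 32.5 and 29.0 CPM (log2 fold-change 0.62, edgeR adjusted p = 0.00365). The septin gene sept2 went from 329, 341 and 319 CPM to 153, 159 and 176 CPM (log2 fold-change -1.02, edgeR adjusted p = 0.000280). The condensin subunit gene ncapd3 changed by -1.04 on the log2 scale (edgeR adjusted p = 0.00130) and the cohesin subunit gene smc1al by -0.83 (edgeR adjusted p = 0.00835). Of 105 replication and cell cycle genes 3 fell, cdk4, orc2 and plk2b, and of 80 cytosolic ribosomal protein genes 2, rps27.1 and rpl22l1. Of these 80 genes 77 lay below 0, by small amounts, with a median log2 fold-change of -0.07. In 26 of the 80 every TALE KD library lay below the controls, which held for 17.3% of all genes tested. The heme synthesis gene alad, on no list, changed by -1.51 on the log2 scale (edgeR adjusted p = 0.000255). The iron exporter gene slc40a1 went from 13.1, 12.3 and 13.8 CPM to 4.87, 6.17 and 5.96 CPM (log2 fold-change -1.19, edgeR adjusted p = 0.00167).

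Matrix, adhesion and stress lists held few calls by edgeR over all 6 libraries without the block. Of 56 cadherins, protocadherins and claudins 1 fell, cdh15, and 0 rose (8 lower and 2 higher with the block). Of 34 collagen, laminin and fibronectin genes edgeR called 0, with 17 at an unadjusted p under 0.05, 3 lower by DESeq2 and 6 lower with the block. The fibrillar collagen gene col1a1a was at 5.30, 5.01 and 4.85 CPM in controls and 1.18, 1.66 and 2.66 CPM after TALE KD (log2 fold-change -1.42, edgeR adjusted p = 0.0149, blocked 0.000633). In the other direction the laminin gene lama1 was at 605, 500 and 594 CPM against 755, 853 and 806 CPM, under the fold threshold (log2 fold-change 0.51, edgeR adjusted p = 0.00843). In both genes the groups were apart. Of 28 p53 pathway genes 1 fell, plk2b, and 1 rose (1 and 7 with the block), with 2 lower and 12 higher at an unadjusted p under 0.05. DESeq2 called 1 lower and 6 higher. In 13 of the 28 every TALE KD library lay above the controls, which held for 15.22% of all genes tested. In 2 every one lay below, which held for 17.3% of all genes. The gene that rose by edgeR without the block was bbc3, which promotes cell death, from 2.51, 3.80 and 4.81 CPM to 16.0, 21.6 and 9.50 CPM (log2 fold-change 2.09, edgeR adjusted p = 0.00870). The cell cycle inhibitor gene cdkn1a was at 7.77, 8.88 and 13.8 CPM against 40.8, 46.8 and 21.1 CPM (log2 fold-change 1.84, edgeR adjusted p = 0.0116, blocked 0.000561). In bbc3 and cdkn1a control replicate 3 was the highest control and TALE KD replicate 3 the lowest TALE KD library. Neither was called without control replicate 1 or 2 or TALE KD replicate 1 or 2, and the part of the p53 pathway genes in the results for other lists was not tested. Of 23 interferon and innate immune genes edgeR called 0 with or without the block and DESeq2 0, with 1 at an unadjusted p under 0.05.

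Of the 34 genes that rose 14 were members of a list. The highest fold-changes among named genes were those of hepacam2, pfkma, slc5a2 and ldhbb, which had at most 4 to 8 counts in a control library, followed by cacna1sb and rcvrn3. The calcium channel subunit gene cacna1sb, of skeletal muscle, was at 0.445, 0.584 and 0.590 CPM in controls and 4.41, 4.19 and 2.16 CPM after TALE KD (log2 fold-change 2.71, edgeR adjusted p = 0.00376). The recoverin family gene rcvrn3 went from 1.34, 1.08 and 1.13 CPM to 9.17, 7.16 and 4.01 CPM (log2 fold-change 2.49, edgeR adjusted p = 0.00389). In both genes TALE KD replicate 3 was the lowest TALE KD library and above all controls. The mineralocorticoid receptor gene nr3c2 rose from 2.59, 1.96 and 2.00 CPM to 5.28, 6.25 and 5.03 CPM (log2 fold-change 1.34, edgeR adjusted p = 0.00400). At higher levels, the desmosomal cadherin gene dsc2l rose from 103, 100 and 90.7 CPM to 208, 216 and 176 CPM (log2 fold-change 1.03, edgeR adjusted p = 0.00106). The nonsense-mediated decay gene upf3b rose from 77.7, 79.6 and 76.4 CPM to 135, 137 and 127 CPM (log2 fold-change 0.77, edgeR adjusted p = 0.000321), and it was called whichever library was left out.

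Since the groups did not overlap in any called gene, each TALE KD replicate lay on the same side of the controls, by unequal amounts. Over the genes called lower the median difference from the control mean, on the log2(CPM + 0.5) scale, was -1.06, -1.02 and -0.82 in TALE KD replicates 1, 2 and 3. Over the genes called higher it was 1.02, 1.14 and 0.80. TALE KD replicate 3 was the nearest of the 3 to the controls in 117 of 147 lower and 30 of 34 higher genes, a share not counted over all genes. The lists differed in this respect. The median of the muscle list was -0.53, -0.59 and -0.38 in the 3 libraries and that of the Hox list -0.46, -0.45 and -0.19. The proneural list had medians of -0.66, -0.51 and -0.20 and the forebrain and eye list of -0.31, -0.18 and -0.06. In these lists replicate 3 lay nearest to 0. In the cytosolic ribosomal protein list it lay farthest from 0, with medians of -0.03, -0.05 and -0.15. The germ cell list had medians of 0.16, 0.00 and -0.16. The lower genes in which TALE KD replicate 3 lay nearest to the control mean, beside the other 2, were smc1al, pou3f3b, pwp2h, cyp20a1 and tgm1l4. The cohesin gene smc1al, for example, was at 269, 294 and 400 CPM after TALE KD and 562, 570 and 580 CPM in controls. Those in which it lay farthest from the mean of the 3 controls, beside the other 2, were plk2b, ptbp2b, mibp2, anapc10 and LOC564685. Measured against control replicate 3 alone, the difference in replicate 3 exceeded that in replicates 1 and 2 in plk2b and LOC564685 only, and in ptbp2b it was -0.923 beside -0.999. The splicing regulator gene ptbp2b was at 65.3, 64.7 and 57.4 CPM after TALE KD and 129, 132 and 109 CPM in controls, so that replicate 3 was the lowest library of each group.

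A comparison within replicate 3 used libraries that had no part in the calls, though they counted towards the mean of at least 10 counts. It rests on 1 control and 1 TALE KD library, and the genes counted are not replicates of their difference. Of the 580 genes called lower from replicates 1 and 2 alone, 536 (92.4%) were lower in TALE KD replicate 3 than in control replicate 3, beside 50.9% of all genes. Of the same genes 224 (38.6%) were lower by at least 1.5-fold, beside 3.49% of all genes. Their median log2 difference was -0.83 in replicates 1 and 2 and -0.47 in replicate 3. Of the 151 genes called higher 135 (89.4%) were higher in replicate 3, beside 49.1% of all genes, and the medians were 0.84 and 0.41. The genes were chosen for large differences in replicates 1 and 2, and such a choice by itself makes smaller medians in replicate 3 likely. Whether replicate 3 also had a smaller effect was not tested. The libraries numbered 3 also shared levels of their own in both groups. Among genes with a mean of at least 5 CPM, 9 were at least 2-fold lower and 7 at least 2-fold higher in both of them than in the other libraries of their group. One was dock11, at 90.8, 73.9 and 19.4 CPM in controls and 133, 100 and 43.9 CPM after TALE KD, and another dennd2db, at 3.44, 3.29 and 15.8 CPM and 3.18, 3.67 and 25.4 CPM.

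**Figure D4:**
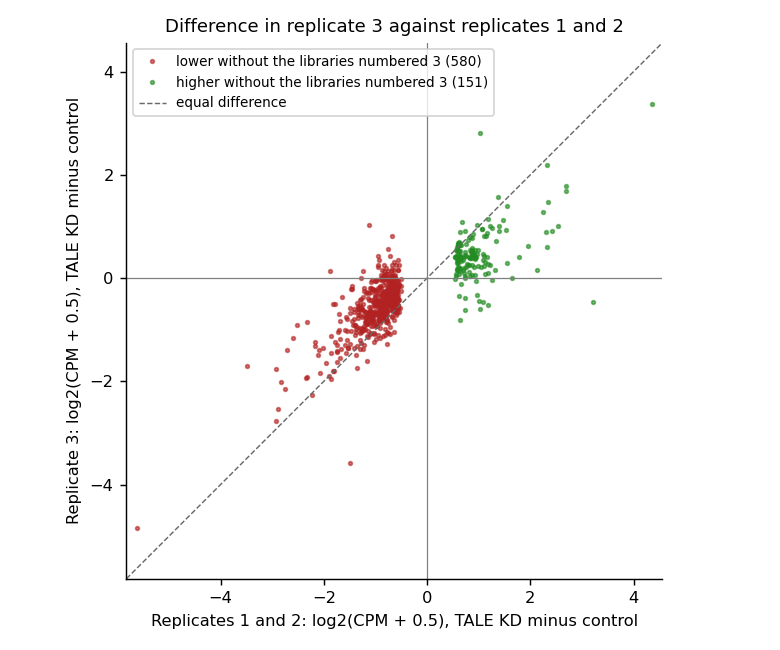
Difference between TALE KD and control on the log2(CPM + 0.5) scale in replicates 1 and 2 (horizontal axis, means) and in replicate 3 (vertical axis) for the 580 genes called lower and the 151 called higher without the libraries numbered 3, 1 point per gene. Most points keep their side of 0, with medians of -0.83 and -0.47 for the lower and 0.84 and 0.41 for the higher genes.

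The genes called at 12hpf fell into classes by their level at 6hpf, which was measured in other libraries. Of the 147 lower genes 53 (36.1%) had a mean under 1 CPM in the 6hpf controls, beside 17.0% of all genes tested, and of the 34 higher genes 8 (23.5%) did. These 53 included hoxa9a, hoxd11a, hoxd12a, gsx1, sox21a, smyhc1, actc1b, chrna1, tcf21, cyp26b1 and fga. Of the 53, 31 (58.5%) were on a list, beside 55 of all 147 lower genes and 16.4% of all genes tested. The lists were written with earlier results of these data known, so called genes were likelier to be on one by that choice. The median log2 fold-change of the 53 was -1.70. Another 41 of the lower genes had every TALE KD library below every control at 6hpf already. They made up 41.8% of the 98 lower genes with enough counts to be tested at 6hpf, beside 5.97% of the 9979 genes tested at both stages. Of these 41, 8 (19.5%) were on a list, their median level in 12hpf controls was 55.9 CPM and their median log2 fold-change at 12hpf was -0.91. They included the broadly expressed genes hnrnpa1a, snrnp27, ptbp2b, sept2, ncapd3, alad, actl6a and ddx19, and also sox9a and pbxip1b. Over the 41 the log2 fold-change at 6hpf lay from -0.08 to -1.24, with -0.16 for hnrnpa1a and -0.17 for sept2. The largest was that of the ether lipid synthesis gene agps. It was at 13.1, 15.6 and 16.5 CPM in controls and 5.59, 6.77 and 6.80 CPM after TALE KD at 6hpf. Its 12hpf levels were 17.8, 17.8 and 16.5 CPM and 9.74, 10.6 and 12.3 CPM. The RNA helicase gene ddx19 had levels of 820, 829 and 845 CPM and 581, 643 and 607 CPM at 6hpf, and at 12hpf of 223, 215 and 209 CPM and 136, 136 and 145 CPM. In both genes the groups were apart at each stage.

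Of the higher genes 29 could be tested at 6hpf, and 8 of these (27.6%) had every TALE KD library above every control there, beside 5.17% of the genes tested at both stages. They were pbx2, riok3, pfkma, ldhbb, upf3b, tulp4a, dsc2l and rassf1. The desmosomal gene dsc2l was at 88.6, 135 and 113 CPM in controls and 177, 179 and 158 CPM after TALE KD at 6hpf. The gene aldh1a2 did not share this pattern, at 140, 152 and 120 CPM against 147, 141 and 130 CPM at 6hpf, where its groups overlapped. Its log2 fold-change was 0.02 at 6hpf and 1.36 at 12hpf, a difference that passed in a fit over the 12 libraries (edgeR adjusted p = 0.00107).

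**Figure D5:**
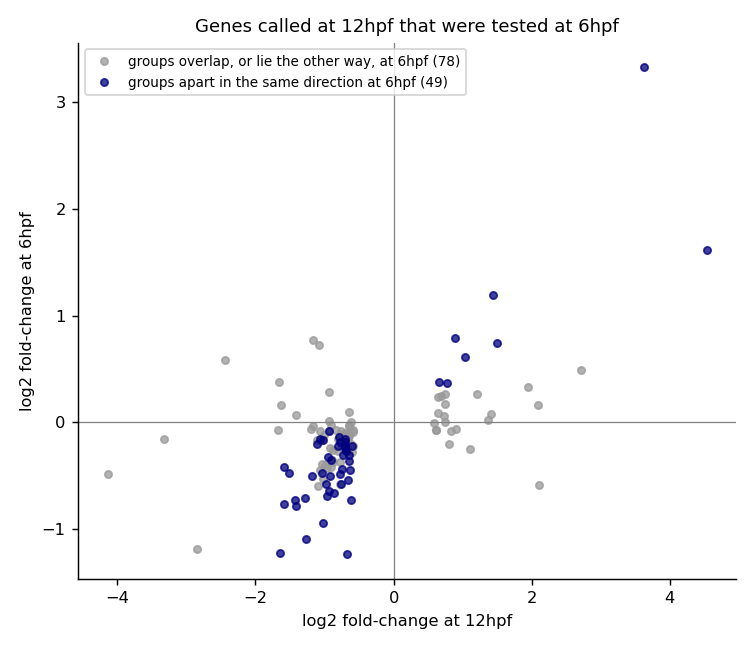
Log2 fold-change at 12hpf (horizontal axis) and at 6hpf (vertical axis) for the 127 genes called at 12hpf that had enough counts at 6hpf, with the 49 whose groups were apart in the same direction at 6hpf marked in their own colour, 1 point per gene. Of the 98 lower genes 88 lie below 0 at 6hpf too, and of the 29 higher genes 20 lie above 0.

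In the gene order of assembly GRCz12tu all 181 called genes could be placed, and 5 pairs of them were neighbours among the 11481 tested genes placed. The number of such pairs among as many genes taken at random was not counted. Besides hoxb1a with hoxb2a and hoxd11a with hoxd12a, the pairs found were mrps10 with tulp4a, a clone-named gene with mrps10, and rps27.1 with another clone-named gene. In the pair of mrps10, a mitochondrial ribosome gene, and tulp4a the directions differed, with log2 fold-changes of -0.81 and 0.66 (edgeR adjusted p = 0.00186 and 0.00331). The ribosomal protein gene rps27.1 fell from 596, 639 and 606 CPM to 358, 347 and 423 CPM (log2 fold-change -0.71, edgeR adjusted p = 0.00239), while its neighbour had 0 counts in each control and was at least 63.8-fold higher after TALE KD. Reads that 2 neighbouring genes could share cannot be told apart from these tables.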

How the data were processed

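RNA of the 12hpf libraries was compared between 3 control and 3 TALE KD samples, grouped by the labels. The authors aligned reads to the DanRer10 zebrafish transcriptome, quantified genes with RSEM (1.2.28 per the labels) and tested with DESeq2. The deposited table is named for TPM but holds RSEM's estimated counts, whose totals differ between libraries. RSEM divides reads that match several genes, so levels of close paralogs depend on that division. Nothing in the labels shows whether the samples of a group came from separate clutches, so p-values measure the spread between these samples.

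Counts were rounded to whole numbers, and genes with a mean of at least 10 were kept. The test was edgeR 4.0.16's quasi-likelihood test in R 4.3.3 with TMM factors and Benjamini-Hochberg adjustment over 11640 genes. Per-library differences used log2(CPM + 0.5). Alternatives were a replicate block, library totals alone, DESeq2 1.42.0, no filter, and libraries left out singly or by number. The comparison within replicate 3 was chosen after seeing the data. The fit was also run on simulated counts with the same relative spread for every gene and no replicate effect. That run does not cover the way the libraries numbered 3 stand apart. No other sample columns were in the table (0 unused).

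Deviations from the group mean correlated at 0.28, 0.31 and 0.54 between libraries of the same number. The numbers were therefore taken to pair the samples, which the labels do not state. Control replicate 1 with TALE KD replicate 2 (0.25) and control replicate 2 with TALE KD replicate 1 (0.22) were nearly as high. The correlations thus chiefly set replicate 3 apart and do not show how replicates 1 and 2 pair. The blocked value is given where it changes a call or a count by more than 1.5 times.

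The 60 gene lists, the comparisons and the members were chosen with earlier results of these data known. Named by rule were up to 3 called members per list and direction with the smallest p (2 members where none was called), the 10 lowest and 10 highest log2 fold-changes, the 5 genes per direction in which TALE KD replicate 3 was nearest to and farthest from the controls, and the morpholino targets. Chosen after their values were seen were actc1b, agps, alad, ascl1b, c9, cdkn1a, col1a1a, crabp2a, cyp26a1, ddx19, dennd2db, dhrs3a, dock11, dsc2l, foxg1a, gbx2, gfi1aa, her1, hoxb1a, hoxd11a, hoxd12a, lmo2, meox1, mrps10, myf5, myod1, ncapd3, nr3c2, pbxip1b, raraa, rarab, rassf1, sept2, shha, shisa3, six3b, smyd1b, smyhc1, snrnp27, sox17, sox32, tulp4a, uncx4.1, upf3b, actl6a and zgc:112980. The study left out 1 library of this stage without naming it, so none was left out here. Promoter and protein sequences were not used here, and the gene order follows assembly GRCz12tu.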

Additional observations from a re-analysis of the deposited data

Results flagged for a closer look

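A difference in the effect of TALE KD between 6hpf and 12hpf passed an adjusted p of at most 0.01 for 4 of 11450 genes (edgeR). It was tested as the interaction of stage and TALE KD in a fit over the 12 libraries. At an unadjusted p under 0.05 there were 993. Genes that did not pass are not thereby shown to have the same effect at both stages. For egr2b, at 0.0492 CPM in the 6hpf controls, the difference was -6.36 (edgeR adjusted p = 0.310). For aldh1a2 the log2 fold-change was 1.35 greater at 12hpf (edgeR adjusted p = 0.00107), with 0.02 at 6hpf. For sept2 the difference was -0.83 (edgeR adjusted p = 0.00107), with a log2 fold-change of -0.17 at 6hpf from 554, 540 and 539 CPM in controls to 491, 492 and 471 CPM after TALE KD. For hnrnpa1a it was -0.88 (edgeR adjusted p = 0.00212), with -0.16 at 6hpf from 1184, 1227 and 1241 CPM to 1095, 1037 and 1128 CPM. For pbx2 it was 0.78 (edgeR adjusted p = 0.00212), with 0.74 at 6hpf.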

How the results depend on the processing

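With the replicate block, which pairs libraries of the same number, 385 genes were lower and 91 higher, and with DESeq2 263 and 63. Leaving out 1 library gave 15 to 382 lower and 5 to 88 higher genes, lowest without control replicate 2 or TALE KD replicate 2 and highest without TALE KD replicate 3. Leaving out both libraries numbered 1 gave 2 lower and 1 higher, both numbered 2 gave 2 and 1, and both numbered 3 gave 580 and 151. Lists with a called member, 35 of 60, became 13 to 52 with 1 library left out and 3, 3 and 54 without both libraries numbered 1, 2 or 3. The share of lower genes under a limit in 6hpf controls, 36.1% at 1 CPM, was 49.0% at 2 CPM and 30.6% at 0.5 CPM. Of the 181 genes called, the block kept 181, DESeq2 179, no filter 180 and library totals alone 140. Over 272 genes and all alternatives 0 changed sign. They include the 181 called genes, whose groups did not overlap. The others were picked for a small p or after their values were seen, so this choice left little room for a change of sign. The median log2 fold-change over all genes lay from -0.007 to 0.003. Beyond fewer libraries in a fit, the cause of these moves was not tested. Genes under about 1 CPM rested on few counts, and with 2 libraries a group few genes passed without numbers 1 or 2, but not without number 3.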
